A study of Mus musculus with 24 samples.

Results

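A set of 5 bins of the mouse genome, each 1 Mb long, stood out singly from their neighbours in γH2AX and are described here in every library. They are named by genes they hold: Prkar1a (chromosome 11, 109000001 to 110000000, build mm10), Gspt1 and Snx29 (chromosome 16, 11000001 to 12000000), Zfhx4 (chromosome 3, 5000001 to 6000000), Cdk8 (chromosome 5, 146000001 to 147000000) and Col8a1 (chromosome 16, 57000001 to 58000000). They are 5 of 2582 bins tested, on chromosomes 1 to 19 and X. The 5 were selected on their γH2AX read counts in these same data, so their height over neighbours, input and H2AX is given below as a description with no test.

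The data are chromatin immunoprecipitation with sequencing of γH2AX and of total H2AX, with input DNA, in female cells called TTF in the labels, an abbreviation they do not explain, from a C57BL6/CAST hybrid. All samples, controls included, were labelled as irradiated with 5 Gy of X-rays and left for 30 minutes. The groups were wild type (WT) and SIRT7-KO (KO) for γH2AX, H2AX and input, and KO clones, KO clones carrying SIRT7-WT, and SIRT7-HY clones (HY is not explained either) for γH2AX and H2AX. Each of these 12 groups has 2 labelled samples. A clone group rests on 2 clones, and SIRT7-WT was put into the same KO clones that stand without it, but the column names number the clone libraries 1 and 2 without saying which clone each is. For WT and KO no label tells whether libraries are from separate cultures, so their p-values reflect the spread of these libraries alone, possibly a technical one. The column names of the deposited WT and KO counts end in NT or Xray although every label states X-rays, and the libraries are called NT-named and Xray-named after those columns.

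Histone H2AX is a variant of H2A that is spread through chromatin. Kinases of the DNA damage response phosphorylate it around a break, and the phosphorylated form, γH2AX, spreads along the flanking chromatin and serves as a platform for repair proteins. SIRT7 is a deacylase of chromatin found largely in the nucleolus, and it has been tied to ribosomal DNA and to repair. The 6 named genes have unrelated roles. Prkar1a encodes a regulatory subunit of protein kinase A, which holds the catalytic subunits inactive until cyclic AMP binds. Gspt1 encodes a release factor of translation termination, and Snx29 a member of the sorting nexins, proteins of membrane traffic. Zfhx4 encodes a large transcription factor with zinc fingers and homeodomains. Cdk8 is the kinase of the Mediator complex, and Col8a1 encodes a chain of type VIII collagen, a short-chain collagen of the extracellular matrix.

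A bin is longer than any of these genes, so a gene names a bin and its own γH2AX is not measured. By the RefSeq annotation of this build, Prkar1a (109649023 to 109669663) shares its bin with 9 other protein-coding genes, among them Rgs9 and Gna13 of G protein signalling and Wipi1 of autophagy. Gspt1 (11216240 to 11254325) and Snx29 (11322861 to 11759095) share theirs with Txndc11, Tnfrsf17 and others, 10 protein-coding genes in all. The Zfhx4 bin (gene at 5218218 to 5415861) holds 2 protein-coding genes, the other being Pex2, needed to make peroxisomes. In the Cdk8 bin (gene at 146230795 to 146302874) 21 protein-coding genes are annotated, from Cyp3a25 to Mtif3, among them the ubiquitin protease Usp12, the ribosomal protein gene Rpl21 and a run of gene models known only by number. The Col8a1 bin (gene at 57624256 to 57754737) holds 8, including Tomm70a, Nit2 and Filip1l. Gene number therefore ranged from 2 to 21, and no annotated ribosomal RNA gene lay in any of the 5 bins.

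The 12 WT and KO libraries of the first table held 170013624 to 268180310 reads and the clone libraries 70349148 to 155364952, with a median bin of 55290 to 88990 and 24905 to 54689 reads, so counting error is small against differences between libraries. Intervals given below cover counting error only. A second table of the series repeats WT with libraries numbered 1 and 2. There, WT replicate 2 matched the NT-named library of WT exactly, in all 2645 bins and each assay, and is counted once. Replicate 1 matched neither (56 to 62 equal bins), so WT has 3 distinct libraries per assay for 2 labelled samples. The titles number the labelled WT samples 1 and 2 as the second table does, so the Xray-named WT library answers to neither by number, and its place in the WT group rests on its column name alone. Levels are in CPM, reads of a bin scaled to the reads in tested bins of its library. The bin with Sirt7 held 215 to 281 CPM in the 6 KO libraries and 414 to 579 in the 6 WT libraries. It is 1 Mb long too and cannot show a deletion of the gene alone. The cell type could not be checked against markers, since the assays measure chromatin and not expression.

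The γH2AX signal rose above its surroundings in 1 bin at a time. Each bin was set against the median of the tested bins among the 5 on each side, called its flanks (10 bins, but 7 for the Zfhx4 bin, which lies near the start of its chromosome). In all 4 γH2AX libraries of WT and KO, each of the 5 bins lay above every one of its flanks. The ratio to flanks ranged from 1.32 to 2.60 in WT and from 1.63 to 3.43 in KO. In H2AX of the same cells it ranged from 0.92 to 1.22 in WT and from 0.89 to 1.25 in KO, and in input from 0.96 to 1.23 and from 0.93 to 1.23.

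**Figure D1:**
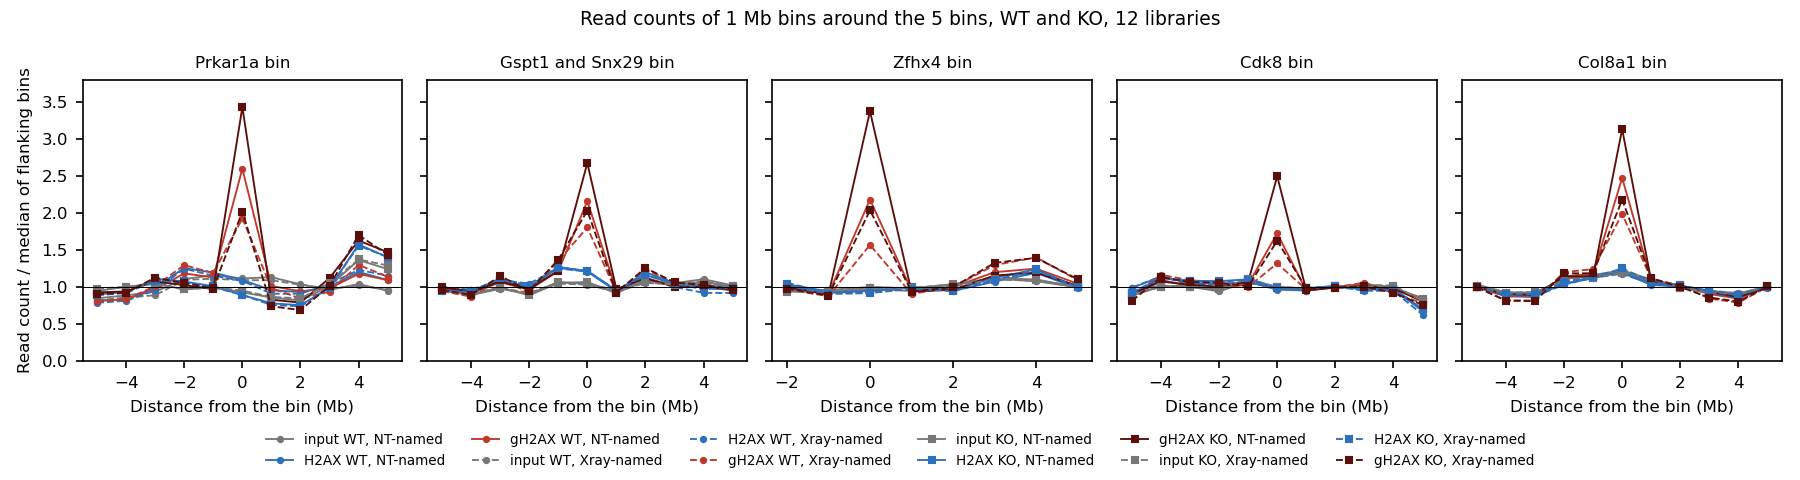
Read count of each 1 Mb bin divided by the median of the flanking bins (y axis) against distance from the named bin in Mb (x axis), for γH2AX (red, WT; dark red, KO), H2AX (blue) and input (grey) in the 12 WT and KO libraries, each line being 1 library. γH2AX peaks at distance 0 in all 5 panels, at up to 3.43 in the Prkar1a bin, and in each γH2AX library it lies above every bin within 5 Mb.

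The Prkar1a bin had the highest ratio of the 5 in both NT-named libraries. It held 976 (NT-named) and 733 CPM (Xray-named) of γH2AX in WT, and 1344 and 834 in KO, against flank medians of 375 to 413. Both NT-named libraries were high, and the Xray-named KO library lay below the NT-named WT library, so the groups overlap. As ratios to flanks these were 2.27 ± 0.474 in WT and 2.73 ± 1.00 in KO (SD, n = 2 each).

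The Gspt1 and Snx29 bin held 778 and 668 CPM of γH2AX in WT (NT-named, Xray-named) and 1072 and 820 in KO. Its flanks held 360 to 404. Here both KO libraries lay above both WT libraries in CPM, while as ratios to flanks (2.16 and 1.81 in WT, 2.68 and 2.03 in KO) they overlapped. The Col8a1 bin on the same chromosome reached 770 (NT-named) and 610 CPM (Xray-named) in WT, with 1101 and 760 in KO. Its KO Xray-named value fell just under the WT NT-named one, and its ratios were 2.48 and 1.99 in WT and 3.14 and 2.18 in KO.

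The Zfhx4 bin, in a gene-poor stretch, held 712 and 497 CPM of γH2AX in WT and 940 and 533 in KO. Because its flanks were lower in KO (278 and 262) than in WT (326 and 316), its ratios were 2.18 and 1.57 in WT and 3.38 and 2.04 in KO. By ratio the Cdk8 bin was the lowest of the 5 in each γH2AX library of both genotypes, with values of 1.73 and 1.32 in WT and 2.50 and 1.63 in KO. In CPM it held 697 and 550 in WT and 842 and 575 in KO. Together the 5 bins held, beyond their flank medians, 0.216% and 0.127% of the γH2AX reads of WT and 0.354% and 0.174% of those of KO (NT-named, Xray-named).

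WT replicate 1 of the second table, the remaining WT library, had γH2AX ratios to flanks of 2.40 in the Prkar1a bin, 2.01 in Gspt1 and Snx29, 2.01 in Zfhx4, 1.58 in Cdk8 and 2.60 in Col8a1. Each of the 5 bins lay above every flank there too, and their excess was 0.193% of its γH2AX reads. These ratios lay between those of the NT-named and Xray-named WT libraries in 4 bins and above both in the Col8a1 bin.

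The choice of bins has an edge. Ranked by mean γH2AX ratio to flanks divided by the same in input, the Prkar1a, Zfhx4, Gspt1 and Snx29, Col8a1 and Cdk8 bins were numbers 2, 3, 4, 5 and 7 of 2582, at 2.44, 2.32, 2.07, 2.02 and 1.82. Number 1, at 17.7, was the bin of the ribosomal RNA copy Rn18s-rs5 on chromosome 17. Number 6, at 1.87, was the last, shortened bin of chromosome 13, and number 8, at 1.59, was the bin of Asmt and Erdr1 near the end of X. Their γH2AX was only 0.597 and 0.228 times their flanks. Number 10, the bin of Stap2, Mpnd and Sh3gl1 on chromosome 17, stood at 1.45 and its γH2AX at 1.62 times its flanks.

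Input and H2AX were then compared with flanks. Input lay within the range of the flanks in 4 of the 5 bins: over the 4 WT and KO libraries it ranged from 0.93 to 1.12 in the Prkar1a bin, 1.03 to 1.07 in the Gspt1 and Snx29 bin, 0.98 to 1.00 in the Zfhx4 bin and 0.96 to 1.00 in the Cdk8 bin. In the Col8a1 bin input lay at 1.20 to 1.23, above every flank in all 4 libraries, and H2AX lay at 1.18 to 1.25. The H2AX of the Gspt1 and Snx29 bin was 1.21 to 1.22, above its input. H2AX of the Zfhx4 bin was 0.92 to 0.95.

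H2AX against input, relative to flanks, was a measure apart from γH2AX. By edgeR's quasi-likelihood test with Benjamini-Hochberg adjustment over all bins, 0 of the 5 bins passed in WT, against 40.8% of all bins, and 0 of 5 in KO, against 35.5%. DESeq2 also called 0 of 5 in WT and KO, against 1342 and 1244 bins. An unadjusted p under 0.05 was reached by 0 of 5, against 1304 and 1225 bins. The Gspt1 and Snx29 bin had the largest difference, 0.22 on the log2 scale (SE 0.115, adjusted p = 0.151) for WT. In KO it was 0.21 (adjusted p = 0.18). This test pools its spread over γH2AX libraries as well, and these differed most between their 2 libraries. Fitted on the H2AX and input libraries compared alone, the same bin passed in WT (adjusted p = 3.13e-05) and KO (adjusted p = 2.08e-12). The Zfhx4 bin was lower there in WT (-0.096, adjusted p = 0.00295) and KO (-0.074, adjusted p = 0.000564). The Prkar1a bin was lower in KO (-0.075, adjusted p = 0.000293). These fits called 1644 of 2582 bins in WT and 1804 in KO, so passing was not particular to these bins.

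Next came KO against WT in γH2AX, groups that differ in SIRT7 by their labels. Their input differed too, in 57.5% of all bins by edgeR's quasi-likelihood test scaled over the genome. The part of DNA content in the γH2AX difference was not tested. The members were not chosen by the γH2AX difference, although the KO libraries were among those that made them stand out. All 5 bins had higher γH2AX in KO, and 2 of 5 passed with scaling over the whole genome, against 60.1% of all bins by the same edgeR quasi-likelihood test, so the count is no result about these bins. The Gspt1 and Snx29 bin rose by 0.41 on the log2 scale (SE 0.113, adjusted p = 0.00984) and the Col8a1 bin by 0.45 (SE 0.155, adjusted p = 0.0281). The Prkar1a (0.37, adjusted p = 0.122), Zfhx4 (0.31, adjusted p = 0.273) and Cdk8 (0.21, adjusted p = 0.286) bins did not pass. The median over the 5 was 0.37 and over all bins -0.034. Fitting the γH2AX libraries alone ended both calls (adjusted p = 0.0749 and 0.125), as did leaving out the Xray-named WT library (0.062 and 0.162), and without the NT-named KO library the Col8a1 bin no longer passed (0.15, adjusted p = 0.244), while without the Xray-named KO library all 5 did, against 61.3% of bins. With WT replicate 1 of the second table in place of the Xray-named WT library, a fit added after seeing the data, neither passed (0.32, adjusted p = 0.0812, and 0.37, adjusted p = 0.0948), nor did the other 3. Without the NT-named KO library the Prkar1a, Zfhx4 and Cdk8 values turned negative (-0.024, -0.17 and -0.11). When the NT-named WT library was left out instead, the Prkar1a value rose to 0.61.

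Input and H2AX of the same bins did not all share the sign of γH2AX. In input the KO against WT difference was 0.24 in the Gspt1 and Snx29 bin and 0.21 in the Col8a1 bin, both on chromosome 16, and -0.26 in the Zfhx4, -0.15 in the Cdk8 and -0.099 in the Prkar1a bin. In H2AX the 5 were 0.17, 0.23, -0.25, -0.26 and -0.16 in that order. By the same edgeR test 0 of 5 passed in H2AX, against 63.3% of bins, and 0 of 5 in input, against 57.5%. An unadjusted p under 0.05 was reached by 0 of 5 in each, against 1713 bins in H2AX and 1553 in input. DESeq2 called 0 of 5 in each, against 1641 and 1634 bins. When only the compared groups entered the fit, all 5 passed in H2AX (adjusted p of 0.00134 or less), against 66.5% of bins in that fit, and in input (2.24e-06 or less), against 79.7%, with these signs.

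Set against flanks, the 5 γH2AX differences were 0.27 (Prkar1a bin, SE 0.209), 0.25 (Gspt1 and Snx29, SE 0.115), 0.53 (Zfhx4, SE 0.208), 0.44 (Cdk8, SE 0.175) and 0.25 (Col8a1, SE 0.147). By edgeR's test 0 of 5 passed, with adjusted p from 0.337 to 0.793, against 2.94% of all bins. An unadjusted p under 0.05 was reached by 2 of 5 (Zfhx4 and Cdk8) and by 302 of 2582 bins. DESeq2 called 0 of 5 and 212 bins. The median of the 5 was 0.27, while the median over all bins was 0.0023 and the median size over all bins 0.024. The 5 were chosen for γH2AX height with the KO libraries included. These medians therefore describe the bins and are no test. Without the Xray-named KO library all 5 passed, with values of 0.43 to 0.85 (adjusted p of 0.0422 or less), against 2.87% of bins in that fit. Without the NT-named KO library they were -0.17 to 0.12, negative in the Prkar1a and Col8a1 bins, and 0 passed. With WT replicate 1 in place of the Xray-named WT library they were 0.13, 0.17, 0.37, 0.32 and 0.066, and 0 passed (adjusted p from 0.753 to 0.87). The difference was larger between the NT-named libraries than between the Xray-named ones in each bin. KO was 1.32, 1.24, 1.55, 1.45 and 1.27 times WT among NT-named libraries, and 1.05, 1.13, 1.30, 1.23 and 1.10 times among Xray-named ones (Prkar1a, Gspt1 and Snx29, Zfhx4, Cdk8 and Col8a1 bins). KO exceeded WT in each of these values, but they come from the same 4 libraries, over which the bins moved together. They are not separate replicates, and no label pairs the libraries by name.

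H2AX and input against flanks stayed close between KO and WT in 4 of the 5 bins. In H2AX these 4 differed by -0.0028 to 0.051 on the log2 scale and in input by -0.025 to 0.037. The exception was the Prkar1a bin, at 0.89 times its flanks in both KO libraries of H2AX and 1.10 and 1.08 in WT, and at 0.93 and 0.95 in KO input and 1.12 and 1.09 in WT. The KO and WT values do not overlap. The difference was -0.29 in H2AX (SE 0.21, adjusted p = 0.794) and -0.23 in input (SE 0.21, adjusted p = 0.9). By edgeR 0 of 5 passed in H2AX, against 1.98% of bins, and 0 of 5 in input, against 2.79%. DESeq2 called 0 of 5 in each, against 158 and 225 bins. In the edgeR fit of the compared groups the Prkar1a bin passed in both (adjusted p = 3.84e-05 and 7.79e-11). That fit called 180 of 2582 bins in H2AX and 565 in input. Its flanks were less even in KO: the highest held 1.58 and 1.56 times their median in H2AX and 1.37 and 1.37 in input, against 1.26 and 1.25, and 1.16 and 1.11, in WT. The part of this unlike local DNA content in the γH2AX difference was not tested.

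The change of γH2AX beyond that of H2AX was 0.56 in the Prkar1a bin (SE 0.296), 0.24 in Gspt1 and Snx29 (SE 0.162), 0.53 in Zfhx4 (SE 0.294), 0.43 in Cdk8 (SE 0.247) and 0.20 in Col8a1 (SE 0.208). By edgeR's test of this difference 0 of 5 passed (adjusted p = 0.994 for all 5), against 0.0387% of bins, that is 1 of 2582. An unadjusted p under 0.05 was reached by 0 of 5 and 131 bins, and DESeq2 called 0 of 5 and 25 bins. The value of the Prkar1a bin combines a rise of 0.27 in γH2AX with a fall in H2AX (-0.29). Over fits with other settings or a library left out, the 5 values ran from 0.12 to 0.89, 0.028 to 0.43, 0.12 to 0.85, 0.090 to 0.71 and -0.084 to 0.44, in the same order.

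The Xray-named libraries were lower than the NT-named ones in γH2AX of all 5 bins, in both genotypes. Relative to flanks the log2 difference, Xray-named minus NT-named, was -0.43, -0.26, -0.48, -0.39 and -0.32 in WT and -0.77, -0.40, -0.73, -0.62 and -0.52 in KO (Prkar1a, Gspt1 and Snx29, Zfhx4, Cdk8, Col8a1). Among 2582 bins ordered from the lowest, these were numbers 3, 20, 2, 4 and 10 in WT and 2, 9, 3, 4 and 5 in KO. Each bin lay below all of its own flanks. The lowest flank of all was at -0.26 in WT, beside the Prkar1a bin, and at -0.21 in KO, beside the Cdk8 bin. In H2AX the same differences ran from -0.044 to 0.052 and in input from -0.045 to 0.035. There is 1 library per name and genotype, so this difference has no replicate of its own and no test, and since the labels give every sample the same dose, what the names stand for is not known here.

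**Figure D2:**
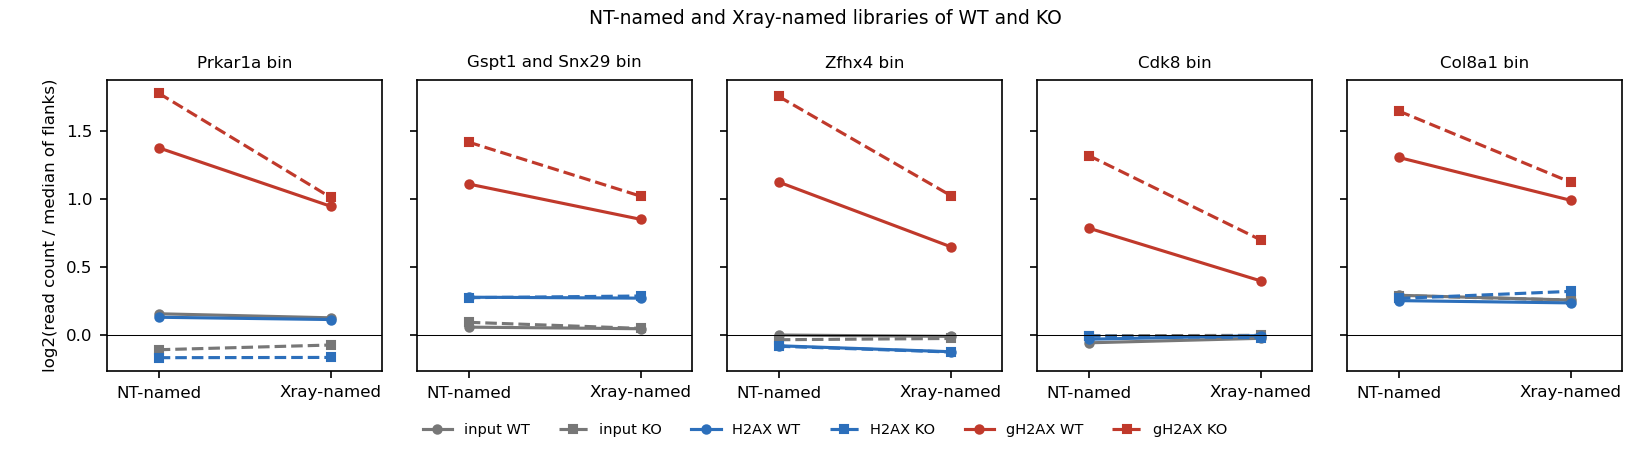
log2 ratio of each bin to its flanks (y axis) in the NT-named and Xray-named library of WT (circles, solid) and KO (squares, dashed) for γH2AX (red), H2AX (blue) and input (grey), 1 library per point. Every red line falls to the right, from 3.43 to 2.02 times the flanks in the KO Prkar1a bin, while the H2AX and input lines stay nearly level.

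In WT, reads had also been sorted by parental genome, into genome1, genome2 and unassigned. Over all bins the median unassigned share was 34.6% and 34.5% in γH2AX of WT replicates 1 and 2, as shares of the 3 classes, which held 97.4% to 98.1% of all reads. In the γH2AX of the 5 bins the unassigned share was far above that of the flanks. The Prkar1a bin had 60.7% (95% exact binomial interval 60.4% to 61.0%) and 66.2% (66.0% to 66.4%), where its flanks had a median of 29.0% and 28.9%. The Gspt1 and Snx29 bin had 53.6% and 61.2% (flanks 33.4% and 34.3%), and the Col8a1 bin 66.8% and 68.9% (flanks 32.5% and 32.0%). The Cdk8 bin had 57.2% and 61.7% (flanks 26.7% and 25.7%). The Zfhx4 bin had 71.4% and 70.7% (flanks 42.6% and 41.5%), but 1 of its flanks was higher still, at 78.6% and 78.5%. In the other 4 bins the share lay above every flank.

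Input and H2AX of the same bins had lower unassigned shares in both replicates. The Prkar1a bin had 27.0% and 22.4% unassigned in input and 20.1% and 22.7% in H2AX, below its flank medians in all 4. The highest of the 5 in these assays was the Zfhx4 bin, at 44.0% and 38.5% in input and 36.0% and 38.2% in H2AX. The Cdk8 bin (36.9% and 32.4% in input) and the Col8a1 bin (41.8% and 36.4%) lay above their flank medians there too, by less than in γH2AX.

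Reads counted by class show where the excess lay. Unassigned γH2AX reads of the Prkar1a bin were 5.09 and 6.07 times the flank median (replicates 1 and 2), while genome1 reads were 1.33 and 1.29 times and genome2 reads 1.27 and 1.20 times. In the Col8a1 bin unassigned reads were 5.74 and 5.59 times the flanks, genome1 reads 1.08 and 1.08 times, and genome2 reads 1.34 and 1.20 times. The same held in the Gspt1 and Snx29 bin, with 3.24 and 3.69 times for unassigned reads, and in the Cdk8 bin, with 3.20 and 3.93 times. In the latter, reads assigned to either parent were below their flanks in both replicates (0.79 and 0.77 for genome1, 0.97 and 0.96 for genome2).

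In the Zfhx4 bin the parental classes lay on opposite sides of their flank medians. Its unassigned γH2AX reads were 2.85 and 3.30 times the flanks, genome2 reads 1.43 and 1.60 times and genome1 reads 0.80 and 0.88 times. Genome1 made up 54.4% and 54.6% of assigned γH2AX reads there, against a flank median of 64.9% in both replicates. Both values lay inside the range of single flanks, 36.9% to 70.5% in replicate 1 and 36.5% to 71.2% in replicate 2. In input genome1 made up 66.1% and 65.9% and in H2AX 62.1% and 63.6% of assigned reads of the bin. Over the 5 bins, unassigned reads made up 77.8% to 117% of the γH2AX excess over flanks, a share above 100% meaning that assigned reads were under their flanks. These values rest on 2 WT libraries, 1 of which is the NT-named library above, and parental counts of KO and clones are not used here.

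**Figure D3:**
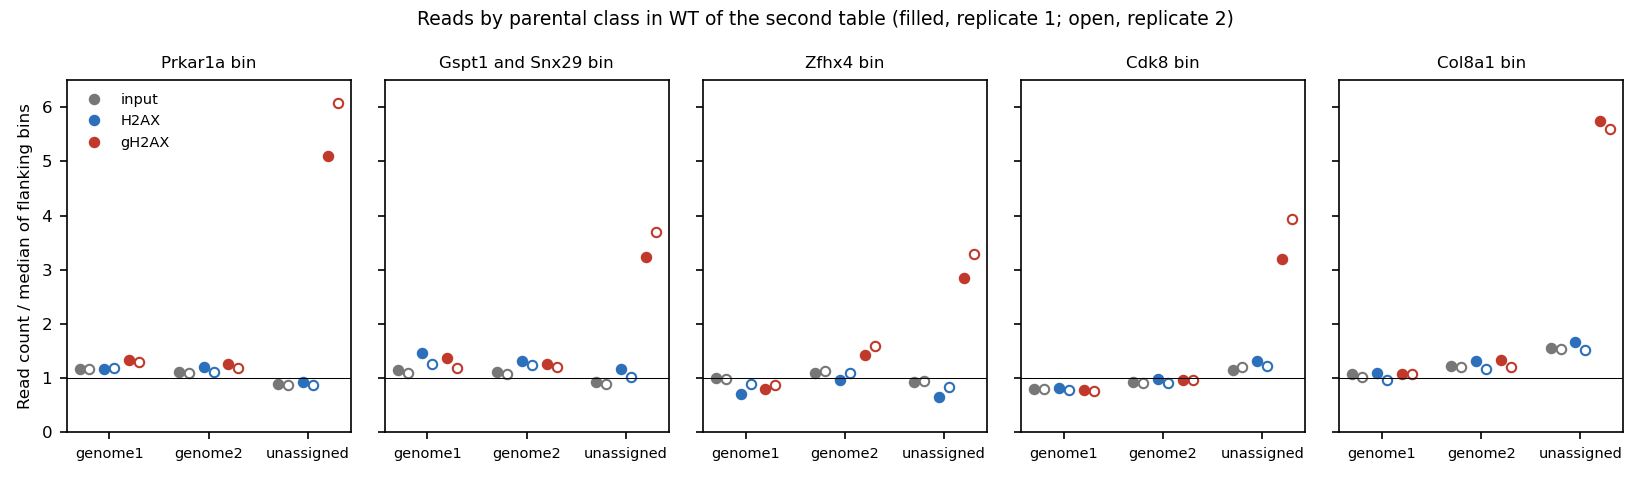
Reads of each parental class in the bin divided by the median of its flanks (y axis) for genome1, genome2 and unassigned reads (x axis) of input (grey), H2AX (blue) and γH2AX (red) in WT, filled circles replicate 1 and open circles replicate 2. Only the unassigned γH2AX points stand at 2.85 or more, and the other points lie between 0.66 and 1.66.

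In the clones the excess of the 5 bins was mostly smaller, at 0.0496% to 0.141% of the γH2AX reads of a library. Over the 6 clone libraries the γH2AX ratio to flanks ranged from 1.36 to 2.01 in the Prkar1a bin, 1.23 to 1.67 in the Gspt1 and Snx29 bin, 1.14 to 1.78 in Zfhx4, 1.08 to 1.47 in Cdk8 and 1.42 to 2.09 in Col8a1. In 3 libraries a flank of the Zfhx4 bin was above it, and in 2 a flank of the Cdk8 bin. The KO libraries stand in another table than the clones, while WT is repeated beside the clones. The difference of the clones from KO or from WT was not tested. The highest value of each of the 5 bins was in 1 library, replicate 2 of the KO clones carrying SIRT7-WT (2.01, 1.67, 1.78, 1.47 and 2.09), while replicate 1 of that group had 1.40, 1.52, 1.14, 1.09 and 1.73.

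**Figure D4:**
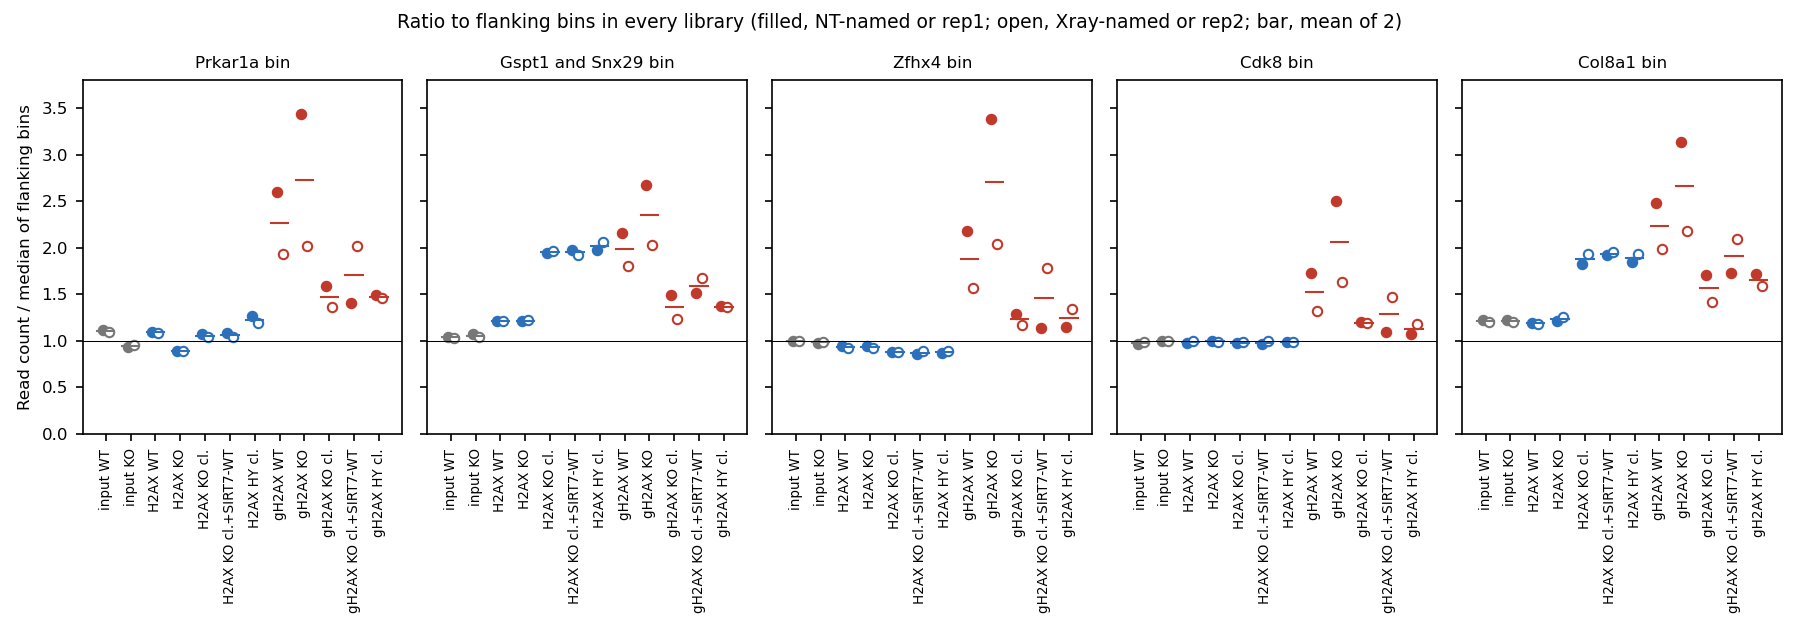
Ratio of each bin to the median of its flanks (y axis) by assay and group (x axis, cl. for clones). The WT and KO libraries of the first table and the clone libraries are shown, without WT replicate 1 of the second table. Filled circles are NT-named or replicate 1 libraries, open circles Xray-named or replicate 2 libraries, and a bar is the mean of 2. γH2AX (red) is highest in the NT-named KO library in each panel, and H2AX (blue) of the clones stands near 2 only in the 2 bins of chromosome 16.

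SIRT7-WT in KO clones was compared with KO clones alone. Relative to flanks γH2AX was higher by 0.21 (Prkar1a bin, SE 0.139), 0.23 (Gspt1 and Snx29, SE 0.0796), 0.24 (Zfhx4, SE 0.166), 0.10 (Cdk8, SE 0.111) and 0.29 (Col8a1, SE 0.101) on the log2 scale. By edgeR's test 0 of 5 passed (adjusted p from 0.287 to 0.581), against 0% of all bins. An unadjusted p under 0.05 was reached by 2 of 5 (Gspt1 and Snx29, Col8a1) and by 419 of 2582 bins, and DESeq2 called 0 of 5 and 66 bins. Without replicate 2 with SIRT7-WT the Prkar1a, Zfhx4 and Cdk8 values turned negative (-0.071, -0.11 and -0.13) and 0 of 5 passed. Replicate 1 with SIRT7-WT lay below replicate 1 of the KO clones in these 3 bins, at 1.40 and 1.59, 1.14 and 1.29, and 1.09 and 1.20 times the flanks. Scaled over the whole genome the 5 were higher by 0.17 to 0.32, and 0 of 5 passed by edgeR against 0.0387% of bins. There 1 of 5 and 23 bins had an unadjusted p under 0.05, and DESeq2 called 0 of 5 and 1 bin.

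HY clones were compared with KO clones in the same way. Relative to flanks the γH2AX differences ran from -0.076 (Cdk8 bin) to 0.080 (Col8a1 bin), and 0 of 5 passed against 0% of bins by edgeR, with 0 of 5 and 169 bins at an unadjusted p under 0.05 and, by DESeq2, 0 of 5 and 16 bins. Scaled over the genome they ran from -0.12 (Zfhx4 bin) to 0.31 (Prkar1a bin), and 0 of 5 passed by edgeR against 0.0387% of bins. There 1 of 5 and 273 bins had an unadjusted p under 0.05, and DESeq2 called 0 of 5 and 129 bins.

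H2AX of the clones had a pattern of its own on chromosome 16. The Gspt1 and Snx29 bin stood at 1.92 to 2.06 times its flanks in the 6 clone H2AX libraries, and the Col8a1 bin at 1.83 to 1.95, each above the γH2AX ratio of the like-numbered library, except for the Col8a1 bin of replicate 2 with SIRT7-WT (1.95 in H2AX and 2.09 in γH2AX). In WT of the same table these bins had 1.35 and 1.22, and 1.34 and 1.19. H2AX of the Zfhx4 (0.85 to 0.89) and Cdk8 (0.96 to 1.00) bins showed no such rise, and that of the Prkar1a bin was 1.04 to 1.26. The whole genome was more uneven in clone H2AX, where the log2 ratio of all bins to their flanks had an SD of 0.64 to 0.70, against 0.37 to 0.45 in H2AX of WT and KO. The 2 chromosome 16 bins ranked only from 91 to 135 of 2582 there, and a flank of the Gspt1 and Snx29 bin was as high as the bin in 4 of the 6. Between clone groups H2AX relative to flanks differed by -0.015 to 0.042 with SIRT7-WT and by -0.0056 to 0.21 in HY clones, and 0 of 5 passed in either, each against 0% of bins by edgeR, with 0 of 5 at an unadjusted p under 0.05 (2 and 205 bins) and 0 of 5 by DESeq2 (0 and 53 bins).

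Relatives of the named genes, from lists chosen with earlier results of these data known, did not share the height of these bins. The 21 bins of other protein kinase A subunits, translation termination factors, sorting nexins, Zfhx genes, Mediator kinase module genes and short-chain collagens had γH2AX ratios to flanks of 0.91 to 1.43 in the 4 WT and KO libraries, the highest being that of Snx25. Among them Prkar1b stood at 1.05 to 1.10 and Cdk19, the paralog of Cdk8, at 1.03 to 1.11. In γH2AX of KO against WT, 9 of the 21 rose and 7 fell by edgeR's test scaled over the genome, together 76.2% of the 21, against 60.1% of all bins, and relative to flanks 0 passed, with differences of -0.048 to 0.085 (adjusted over all bins). By family, 2 rose and 2 fell of 5 bins of protein kinase A subunits, 1 and 2 of 4 of sorting nexins, and 3 and 3 of 6 of Mediator kinase module genes. Of 2 bins each, 1 rose and 0 fell among termination factors, Zfhx genes and collagens.

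Bins of like pattern were sought over the 12 WT and KO libraries. Among 357 other bins with a mean γH2AX log2 ratio to flanks of at least 0.2, the correlation with the mean of the 5 was highest for the bin of Rn18s-rs5, the ribosomal RNA copy (r = 0.99, n = 12). Next came the bins of Cntnap5b (0.97), of Crem and Cul2 (0.97) and of Lars2 with Zdhhc3 (0.94). The 12 points share libraries and fall into 3 assays, so these values describe the data and are no test. The Crem and Cul2 bin was raised in all 3 assays, at 1.46 to 1.56 times its flanks in γH2AX and a mean of 1.37 in both H2AX and input. In the Cntnap5b bin these means were 1.03 for H2AX and 0.96 for input, and in the Lars2 bin 1.01 and 1.11. The Rn18s-rs5 bin reached 23.4 and 11.3 times its flanks in γH2AX of WT (NT-named, Xray-named) and 45.4 and 19.1 in KO, the order of the libraries seen in the Prkar1a bin. The Lars2 bin had the same order at a lower height, 1.61 and 1.28 in WT and 1.90 and 1.37 in KO. By edgeR relative to flanks neither passed in KO against WT (0.90, adjusted p = 0.407, and 0.18, adjusted p = 0.786). By the same test the bin of Erdr1, near the end of X, rose in γH2AX (1.13, adjusted p = 5.96e-07), H2AX (1.07, adjusted p = 1.01e-06) and input (1.24, adjusted p = 2.83e-07) alike. Its γH2AX beyond H2AX differed by 0.059 (adjusted p = 0.994). Among themselves the 5 bins correlated at r = 0.95 to 1.00 over the 4 γH2AX libraries of WT and KO and at 0.56 to 0.96 over the 6 of the clones (10 pairs each).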

How the data were processed

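Per the labels' protocols, crosslinked chromatin was sonicated and immunoprecipitated with antibodies to H2AX or γH2AX. The authors deposited 2 tables of read counts per 1 Mb bin, on build mm10 per the submitters' processing notes, which name Bowtie2 2.2.9 and deepTools 2.4.2, among others. How duplicates and reads mapping to several places were treated, and how reads were given to a parent, is not given in the sources used here. Of 144 columns of values 48 were matched to a labelled group or sample and 96 were not used, among them the clone inputs.

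Bins with a mean count of at least 100 on chromosomes 1 to 19 and X were tested (2582). Counts were fitted with edgeR 4.0.16 (R 4.3.3; quasi-likelihood F test, two-sided, 12 libraries of a table in 1 fit), scaled by TMM or, relative to flanks, with the log of the median count of the tested bins among 5 on each side as offset. Benjamini-Hochberg adjustment ran over all bins, with a threshold of 0.05. DESeq2 1.42.0 was an alternative. CPM divide by the reads in tested bins. With flanks as offset, a call can also come from a changed flank. Both fits were run on simulated data in which every bin had the median spread. That does not show how they behave for bins with a wider spread. The members and gene lists were chosen with earlier results of these data known. The 6 genes and the protein-coding genes of their bins are named, with the relatives listed by family, the 5 bins most correlated with the members and those next in rank, of which 1 bin is not reported here. With 2 libraries against 2 no exact permutation test is given.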

Additional observations from a re-analysis of the deposited data

How the results depend on the processing

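Over 15 comparisons, 137 of 158 alternatives left the number of the 5 bins that passed as it was or close to it. In 21 it changed more. None of the called values reversed, while some uncalled ones changed sign, among them 3 of KO against WT without the NT-named KO library and 3 of SIRT7-WT without its replicate 2, and DESeq2 left all 15 counts as they were. For γH2AX of KO against WT scaled over the genome (2 of 5), fitting only the compared groups gave 0, as did WT replicate 1 of the second table in place of the Xray-named WT library (added after seeing the data), and leaving out each library in turn gave 0 to 5. Fits of the compared groups only gave 5 bins for H2AX and 5 for input scaled over the genome (66.5% and 79.7% of all bins). Relative to flanks they gave 1 for H2AX (180 of 2582 bins) and 1 for input (565). For H2AX against input they gave 2 in WT (1644) and 3 in KO (1804). All of these had been 0. For γH2AX of KO against WT relative to flanks (0 of 5), leaving out each library in turn gave 0 to 5. The cause was not tested, beyond the fact that such fits leave out libraries that share the spread.

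The NT and Xray names pair no samples by the labels. Over bins, the NT minus Xray differences of KO and WT correlated at 0.96 (γH2AX), 0.68 (H2AX) and 0.49 (input), a hint from the data only. A fit with the name as a replicate block gave, of 5 bins, 5 in γH2AX of KO against WT scaled over the genome, 3 in H2AX and 2 in input, where it called 82.9%, 81.6% and 80.2% of all bins. Relative to flanks it gave 5 for γH2AX (771 of 2582 bins), 1 for H2AX (744), 1 for input (714) and 5 for γH2AX beyond H2AX (481). For H2AX against input it gave 2 in WT (1943 bins) and 1 in KO (1875 bins). In the clones the block left 0 of 5 in all 6 comparisons. The clone names would pair KO clones with and without SIRT7-WT, but the columns do not carry them.

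Counts over the genome moved more. Relative to flanks, γH2AX of KO against WT had 76 bins called, 212 by DESeq2, 771 with the replicate block and 4 in the fit of the compared groups. H2AX had 51, 158, 744 and 180, and input 72, 225, 714 and 565. γH2AX beyond H2AX had 1, 25, 481 and 0. Of the clone comparisons, γH2AX of HY against KO clones scaled over the genome had 1 bin, 129 by DESeq2, 436 with the block and 0 in the compared groups, and with SIRT7-WT 1, with 0 under the block or in the compared groups. Relative to flanks, SIRT7-WT had 0, 66 by DESeq2 and 653 with the block, HY clones 0, 16 and 3, and their H2AX 0, 53 and 22. γH2AX of KO against WT scaled over the genome had 1553, and 919 in the compared groups. With WT replicate 1 of the second table in place of the Xray-named one, the counts of KO against WT scaled over the genome were 783 (γH2AX), 824 (H2AX) and 684 (input), relative to flanks 38, 32 and 35, and for H2AX against input 506 (WT) and 2 (KO). H2AX against input had 1053 bins in WT, 1943 with the block and 1644 in the compared groups, and 917, 1875 and 1804 in KO.

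Flanks of 3 bins on each side, or their mean, moved 17 of the described ratios, all of clones or of unassigned reads, by more than the spread between their 2 libraries. The Xray-named minus NT-named differences in γH2AX were negative under both. Depth was not a limit at these counts. The size of the bins is: a signal inside 1 Mb cannot be placed on any of its genes.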
